A study of Arabidopsis halleri with 12 samples.

Results

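The comparison described here set roots given added zinc against roots in control medium within an AhNAS2-RNAi line of Arabidopsis halleri. Its members were 6 of the 12 arrays of the study, chosen by their titles: 3 of RNAi roots with zinc and 3 of RNAi roots without. It was read over 22746 probe sets, which are all of the 22810 in the table apart from 64 control probe sets. Each value is the log2 signal of a probe set on one array, and each difference is zinc minus control.

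The RNAi plants carried the genotype label AhNAS2-RNAi-1-2, a single line, so a feature of this line cannot be told apart from suppression of AhNAS2. Both RNAi groups carried this genotype label, and they differed in the medium: a Hoagland solution with 10 µM zinc added, or the control Hoagland solution. The other arrays were of Langelsheim wild-type (WT) roots in the same media, 3 with zinc and 3 in control medium. All plants were vegetatively propagated clones, were 5 weeks old and grew in hydroponics, and each array pooled the roots of 3 plants. The p-values below measure the spread between these pooled samples.

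A. halleri is a zinc hyperaccumulator, a plant that moves large amounts of zinc from root to leaf. The NAS enzymes make nicotianamine, a small chelator that binds zinc, iron and copper and keeps them mobile between root cells and the xylem. Transporters of the ZIP family bring zinc into cells and many are induced by zinc deficiency through the regulators bZIP19 and bZIP23. Iron-deficient roots acidify and reduce iron, take it up, and release coumarins that mobilise it, under the control of a network of bHLH regulators. In Arabidopsis thaliana, excess zinc competes with iron and can bring on the iron deficiency response, so the genes of these pathways were read as groups.

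Gene names came from an annotation of the array's A. thaliana probe sets. The annotation paired 13513 of the probe sets tested with 1 gene and 503 with several, and 8730 were not listed and stay unnamed. How well the probe sets match A. halleri RNA was not tested, so levels compared between probe sets are signals and not transcript amounts. No probe set carried the name of a nicotianamine synthase, so suppression of the targeted gene was not checked on these arrays. Of the root markers only PYK10, a beta-glucosidase of root ER bodies, had a named probe set. PYK10 was at 9.76, 9.89 and 9.88 in RNAi zinc roots, against 9.82, 9.96 and 9.68 in RNAi control roots, far above the array medians of 5.34 to 5.38. Of 48 photosynthesis genes used as markers of shoot tissue, 8 had a named probe set. Their mean levels lay between 3.69 and 5.49, and their summed log2 level was 7.67 to 8.02 in zinc and 7.72 to 7.89 in control.

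No transcript passed the test for a difference between added zinc and control medium in RNAi roots. A group-means model over all 12 arrays (limma, two-sided, Benjamini-Hochberg adjustment over all probe sets, threshold 0.05) called 0 of 22746 (0%), with a lowest adjusted p of 0.895. Without adjustment, 1027 probe sets (4.52%) had a p under 0.05, where 1137 would be given on average by chance. Of these, 441 were higher (1.94%) and 586 lower (2.58%) in zinc. With array weights the count under 0.05 was 1852. With single arrays left out it ran from 766 (without RNAi control replicate 2) to 1490 (without RNAi zinc replicate 1). In WT roots the same test also called 0 probe sets (0%), with 1147 at an unadjusted p under 0.05 (5.04%) and a lowest adjusted p of 0.428.

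The differences were small for most transcripts. The 95% interval of the zinc difference lay within 1 log2 unit on either side of 0 for 22309 probe sets (98.1%), and within 0.5 for 19263 (84.7%). The median standard error (SE) was 0.109, and the median difference over all probe sets was -0.0017. A difference of at least 1 in size was seen for 2 probe sets in the higher direction (0.00879%) and 13 in the lower direction (0.0572%). Of these 15, 4 carried 1 gene name and 11 carried none. All 3 zinc arrays lay on one side of all 3 control arrays for 2279 probe sets (10.0%), 1049 with zinc higher (4.61%) and 1230 with zinc lower (5.41%). Among these, 20 had a difference of at least 0.5 upwards (0.0879%) and 56 one of at least 0.5 downwards (0.246%). Without RNAi zinc replicate 1, which had the lowest array weight (0.491), 31 probe sets differed by at least 1, with 8 higher and 23 lower.

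**Figure D1:**
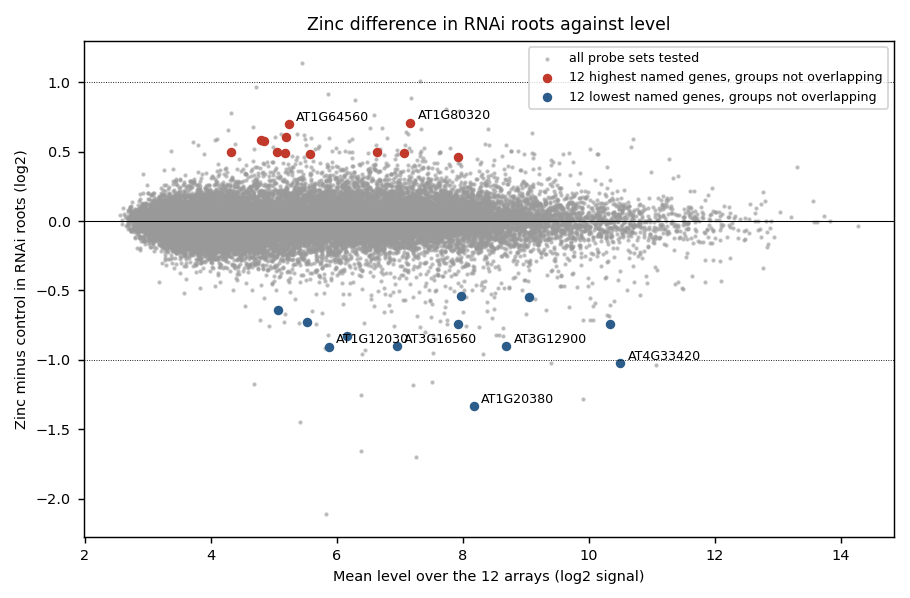
Zinc minus control difference in RNAi roots (log2, vertical axis) against the mean level over the 12 arrays (log2 signal, horizontal axis) for the 22746 probe sets, with the 12 highest and 12 lowest named genes whose groups do not overlap in colour. Most points lie close to 0, the dotted lines mark differences of 1 and -1, and the coloured genes furthest from 0 are AT1G20380 (-1.33) and AT4G33420 (-1.03).

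Genes were ranked only where the RNAi groups did not overlap, which left out genes such as HIS1-3 (-1.18) and NRT2.5 (0.97), described further on. The 12 lowest of the ranked genes came from several kinds of enzyme and from transcription factors. AT1G20380, of the prolyl oligopeptidase family, was at 7.38, 6.93 and 7.82 in RNAi zinc roots, against 9.14, 8.68 and 8.31 in RNAi control roots. All its zinc arrays lay below all its control arrays, with a difference of -1.33 (SE 0.26, limma adjusted p = 0.895). AT4G33420, a class III peroxidase of the cell wall, was at 10.47, 9.27 and 10.13 with zinc, against 11.08, 10.80 and 11.08 in control. Its groups did not overlap, zinc replicate 2 was the lowest array, and the difference was -1.03 (SE 0.26, limma adjusted p = 0.913). AT1G12030 was at 5.52, 5.37 and 5.63 with zinc, against 6.46, 6.49 and 6.29 in control, with little spread inside either group. AT3G16560, of the type 2C protein phosphatase family, averaged 6.38 ± 0.56 with zinc and 7.28 ± 0.04 in control (SD, n = 3 each). Zinc replicate 3, at 7.02, lay close to the controls for this gene, and the difference of -0.90 became -1.23 without it.

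AT1G69570, which encodes the Dof factor CDF5, was at 5.23, 6.02 and 6.39 with zinc, against 6.53, 6.63 and 6.95 in control. AT1G68360, a C2H2 zinc finger protein, was at 7.15, 7.86 and 7.65 with zinc, against 8.47, 8.18 and 8.23 in control. In both of these regulators zinc replicate 1 was the lowest array and the groups did not overlap. AT5G41670, a 6-phosphogluconate dehydrogenase of the pentose phosphate pathway, averaged 8.65 ± 0.29 with zinc and 9.19 ± 0.14 in control (SD, n = 3 each). EXLB1, an expansin-like protein, averaged 7.78 ± 0.01 with zinc and 8.33 ± 0.22 in control (SD, n = 3 each). The other 4 of the 12 were AT3G12900 and AT3G13610, described with the coumarin genes, and AT1G05340 (-0.73) and AT2G48080 (-0.64).

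In WT roots 10 of the 12 lowest genes had a zinc difference of the same sign, and the share over all probe sets was not computed. Of the 12, 0 had WT groups that did not overlap, against 10.3% of all probe sets in either direction. AT1G20380 had a WT difference of -0.44, AT4G33420 of -0.44 and AT3G16560 of 0.04. The difference between the lines in zinc response (the interaction, RNAi minus WT) was -0.90 for AT1G20380 (SE 0.36) and -0.95 for AT3G16560 (SE 0.31). Neither passed, with a limma adjusted p of 0.9999 for each. Of the 12, 5 had an interaction at an unadjusted p under 0.05, against 2.18% of all probe sets, but the genes were chosen by the RNAi values that enter the interaction.

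The 12 highest of the genes with separate RNAi groups had smaller differences, from 0.46 to 0.71, and 7 of them lay below the median level of the array. AT1G80320, of the 2-oxoglutarate and iron-dependent oxygenase family, was at 7.47, 8.34 and 7.56 in RNAi zinc roots, against 7.36, 7.26 and 6.64 in RNAi control roots. Zinc replicate 2 was the highest array and control replicate 3 the lowest, and the difference of 0.71 (SE 0.25, limma adjusted p = 0.9996) was 0.43 without zinc replicate 2. BGLU43, a beta-glucosidase, was at 5.35, 5.54 and 5.16 with zinc, against 4.66, 4.71 and 4.94 in control. AT3G53950, related to glyoxal oxidases, was at 6.62, 7.14 and 7.06 with zinc, against 6.50, 6.44 and 6.40 in control. In both genes the groups were separate, with differences of 0.58 (SE 0.13) and 0.49 (SE 0.17). AT2G37870, of the lipid-transfer and protease inhibitor family, averaged 7.05 ± 0.18 with zinc and 6.56 ± 0.11 in control (SD, n = 3 each).

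AT5G59990, which has a CCT motif, was at 4.55, 4.66 and 4.45 with zinc, against 4.15, 4.08 and 3.93 in control. AT2G23910, with a Rossmann fold, was at 5.42, 5.49 and 5.04 with zinc, against 4.80, 4.82 and 4.82 in control. The remaining 6 were AT1G64560 (0.70), AT1G43240 (0.61), AT5G53880 (0.58), AT1G64700 (0.49), AT1G35280 (0.48) and AT1G19960 (0.46). In WT roots 9 of the 12 had a difference of the same sign, again with no share over all probe sets computed. In 3 of them, AT1G64560, AT1G43240 and AT1G35280, the WT zinc arrays also lay above all WT controls. Over all probe sets 10.3% had separate WT groups in either direction. AT1G64560 differed by 0.68 in WT and AT1G43240 by 0.56, close to their RNAi values. AT1G80320 differed by -0.34 in WT, and its interaction was 1.05 (SE 0.36, limma adjusted p = 0.9999).

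**Figure D2:**
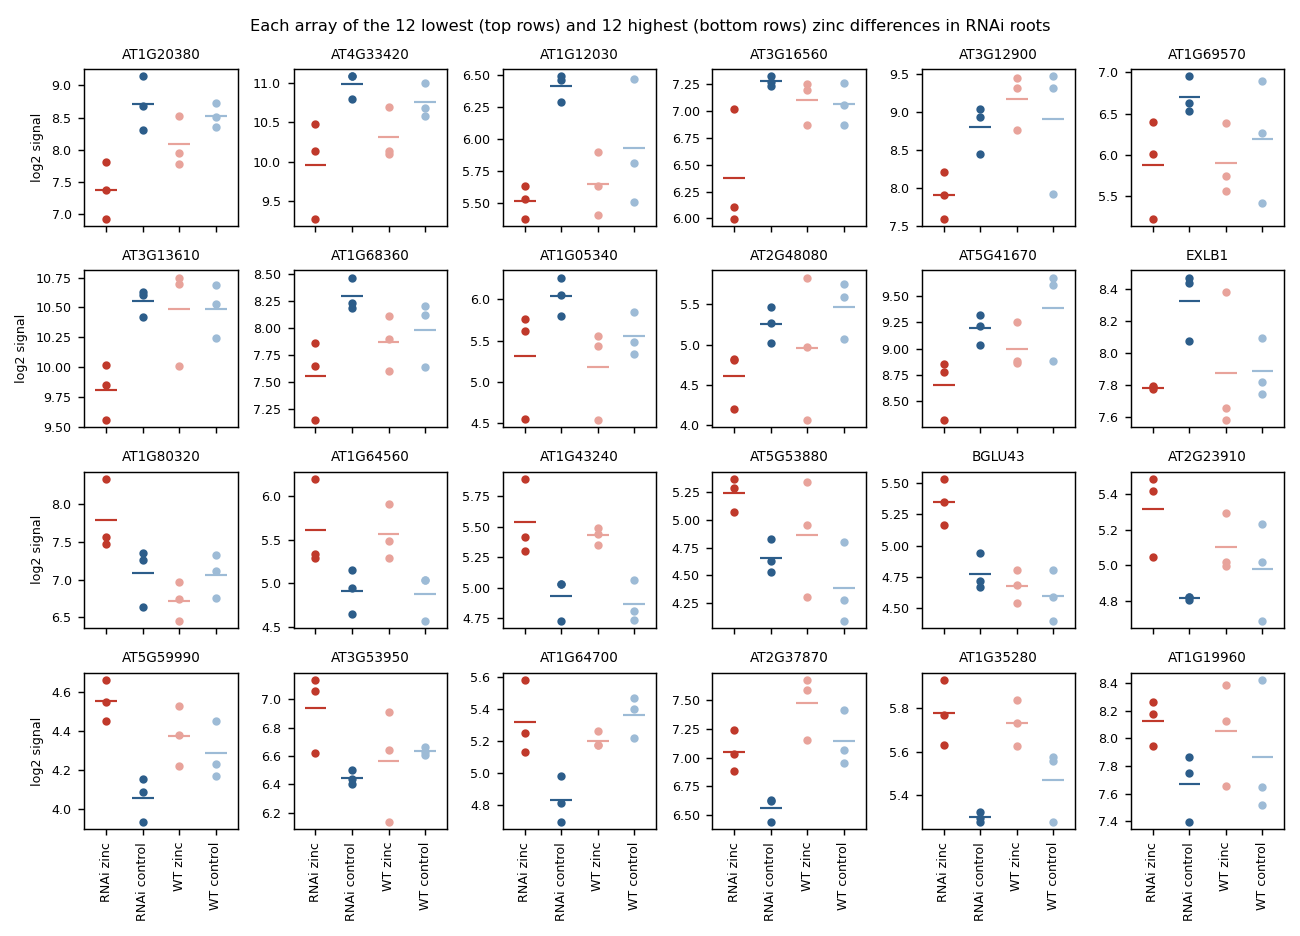
Level on each array (log2 signal, vertical axes differ and do not start at 0) of the 12 lowest genes in the upper rows and the 12 highest in the lower rows, with RNAi zinc, RNAi control, WT zinc and WT control from left to right, points for arrays and bars for group means. The RNAi groups do not overlap in any panel because the genes were chosen that way, and AT1G20380 shows the widest gap, 7.38 against 8.71.

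Ranking the genes with separate groups by p instead of by size brought in genes with little spread. Those with zinc higher were AT4G03930, a pectin methylesterase (0.45, SE 0.089), AT5G15070, the inositol pyrophosphate kinase VIH1 (0.43, SE 0.089), and AT1G01300, an aspartyl protease (0.32, SE 0.074), beside AT1G35280, AT5G59990 and BGLU43. AT1G01300 was at 7.37, 7.44 and 7.31 with zinc, against 6.99, 7.05 and 7.12 in control. Those with zinc lower were AT5G42760 (-0.41), AT2G30270 (-0.36), AT5G41050 (-0.34), AT5G15950, an S-adenosylmethionine decarboxylase of polyamine synthesis (-0.40, SE 0.081), and AT1G17860, a Kunitz-type trypsin inhibitor (-0.49, SE 0.11), beside AT1G20380. AT5G15950 was at 6.16, 6.36 and 6.28 with zinc, against 6.74, 6.67 and 6.59 in control. AT1G17860 was at 6.25, 6.05 and 6.28 with zinc, against 6.69, 6.65 and 6.71 in control. The gap between the groups was wider than the range inside each in both of these genes. Both were chosen for separate groups and a small p, so the choice itself favours such a gap. The limma adjusted p of the genes ranked by p was 0.895 to 0.913.

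The zinc transport genes with a named probe set did not differ beyond the spread of the RNAi arrays. Of 24 genes on this list 4 had a named probe set, and 0 passed, with 2 higher, 2 lower and a list median of -0.062. ZIP9, a zinc uptake transporter induced by zinc deficiency, was at 10.37, 10.33 and 9.36 in RNAi zinc roots, against 11.07, 11.12 and 9.69 in RNAi control roots. Replicate 3 was the lowest array in both media, the groups overlapped, and the difference was -0.61 (SE 0.38, limma adjusted p = 0.9996). It was -1.08 without RNAi control replicate 3 and -0.28 without RNAi zinc replicate 3. In WT roots the ZIP9 difference was -0.84 (SE 0.38, limma adjusted p = 0.972), and all WT zinc arrays lay below all WT controls. Over all probe sets 10.3% had separate WT groups in either direction. The ZIP9 interaction was 0.23 (SE 0.53, limma adjusted p = 0.9999). ZIP6, of the same family, differed by -0.19, and AT3G58060, the manganese carrier MTP8, by 0.28 (SE 0.26). bZIP19, a regulator that senses zinc and induces ZIP genes under deficiency, averaged 5.86 ± 0.15 with zinc and 5.80 ± 0.20 in control (SD, n = 3 each). The interval of its difference ran from -0.21 to 0.34. None of the 7 genes of nicotianamine synthesis and transport had a named probe set.

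Apart from the manganese carrier MTP8, the iron uptake genes with a named probe set were all coumarin genes, and 2 of these had the lowest values. The list therefore could not set coumarin genes against the rest of iron uptake. AT3G13610, feruloyl-CoA 6'-hydroxylase, makes the precursor of scopoletin, and it was at 10.02, 9.85 and 9.56 in RNAi zinc roots, against 10.42, 10.63 and 10.61 in RNAi control roots. AT3G12900, scopoletin 8-hydroxylase, makes the iron-mobilising coumarin fraxetin, and it was at 8.21, 7.59 and 7.90 with zinc, against 8.44, 8.93 and 9.03 in control. The groups of both genes were separate, with differences of -0.74 (SE 0.19, limma adjusted p = 0.913) and -0.90 (SE 0.35, limma adjusted p = 0.9996). In WT roots their differences were -0.0026 and 0.27, and their interactions were -0.74 (SE 0.27) and -1.17 (SE 0.49), with a limma adjusted p of 0.9999 for each. AT1G28680, the coumarin synthase COSY, differed by -0.17 (SE 0.11), and BGLU42, a beta-glucosidase that releases coumarins, by -0.064 (SE 0.12). Of the 17 genes on the list 5 had a named probe set, 0 passed, and the median was -0.17. In 2 of them, both lower, the groups were separate, against 5.41% of all probe sets with zinc lower.

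Iron deficiency regulators differed little between the media. Of 19 genes 8 had a named probe set, 0 passed, 3 were above 0 and 5 below, and the median was -0.167, against 0.058 in WT. With the spike-in level of each array as a covariate the RNAi median was 0.12. PYE, a bHLH repressor in the iron-deficient stele, was at 4.50, 4.64 and 4.63 with zinc, against 4.80, 4.80 and 4.72 in control. bHLH34, an activator of the same network, was at 6.17, 6.14 and 6.07 with zinc, against 6.35, 6.35 and 6.20 in control. These were the 2 of 8 members whose groups did not overlap, against 5.41% of all probe sets with zinc lower, with differences of -0.18 for each. BHLH101 differed by -0.16, bHLH115 by -0.18, AT1G74770, the iron-binding ubiquitin ligase BTSL1, by -0.20, bHLH104 by 0.029 and ILR3 by 0.0040. AT1G47400, the iron-responsive peptide IMA1, varied widely, at 5.64, 6.02 and 6.31 with zinc, against 5.69, 5.30 and 6.46 in control, and its interval of -0.90 to 1.25 was the widest of the list. CCS, the copper chaperone of superoxide dismutase, averaged 6.65 ± 0.11 with zinc and 6.92 ± 0.26 in control (SD, n = 3 each), a difference of -0.27 (SE 0.19).

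A further 10 metal and iron-sulphur genes had differences from -0.23 to 0.059, with 3 above 0, 7 below, 0 past the threshold and a median of -0.071. At the ends of that range were LPR1 (-0.23), a root ferroxidase-type protein of the phosphate response, and MTP11 (0.059), a manganese carrier. The others were the manganese and iron family carrier NRAMP5 (-0.18), LPR2 (-0.092), the metallothionein MT1C (-0.071), the iron-sulphur proteins SUFE2 (-0.073), ISU1 (-0.071) and CPNIFS (-0.029), MTPA1 (0.0056) and bHLH121 (0.052). MT1C was at 10.94, 11.62 and 11.45 with zinc, against 11.41, 11.44 and 11.37 in control, so that zinc replicate 1 lay apart.

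**Figure D3:**
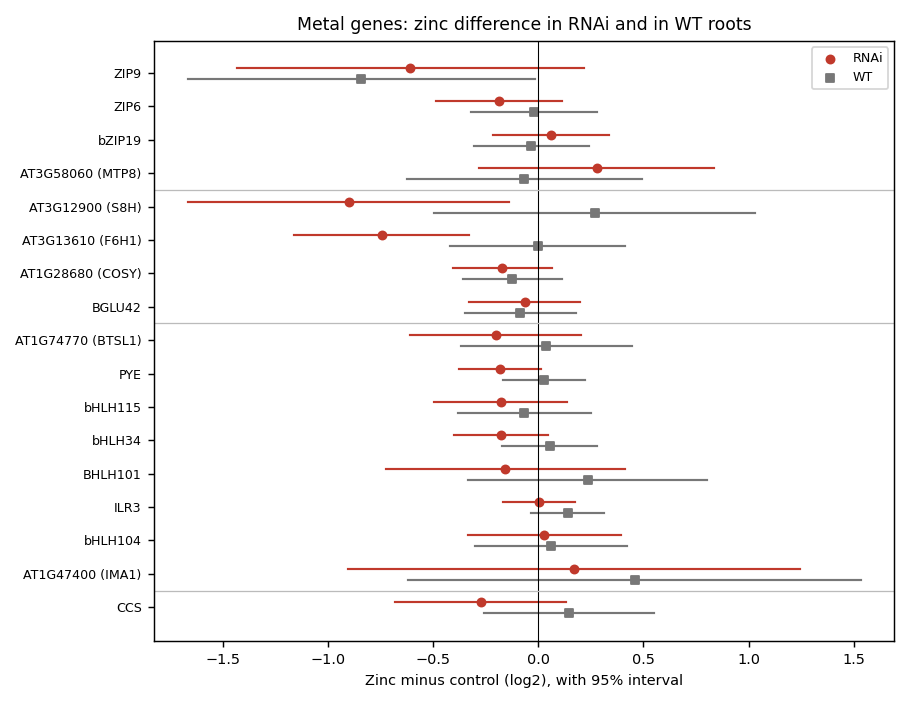
Zinc minus control difference (log2, horizontal axis) of the named zinc, iron and copper genes with its 95% interval, circles for RNAi roots and squares for WT roots, in blocks for zinc transport, iron uptake, iron regulators and copper. The intervals of AT3G13610 and AT3G12900 lie below 0 in RNAi roots, at -0.74 and -0.90, and those of the other genes include 0 in RNAi roots.

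Genes of root hair walls and growth had the lowest median of any list, and also varied between arrays of one medium; its members are all named after their values were seen. Of 33 genes 8 had a named probe set, 8 of 8 lay below 0, 0 passed, and the median was -0.42 in RNAi roots and -0.51 in WT roots. AT5G06630, an extensin-like wall protein, was at 10.18, 9.80 and 9.01 in RNAi zinc roots, against 10.81, 10.80 and 9.53 in RNAi control roots. EXPA7, an expansin of root hair cells, was at 8.05, 8.17 and 7.17 with zinc, against 8.55, 8.62 and 7.52 in control. Replicate 3 was the lowest array in both media for both genes, and 0 of the 8 had groups that did not overlap, against 10.0% of all probe sets. AT3G54580, another extensin-like protein, differed by -0.73 (SE 0.30), EXPA18 by -0.41 (SE 0.36) and XTH26, a xyloglucan-modifying enzyme, by -0.31 (SE 0.37). The peroxidases AT1G30870, AT4G26010 and AT5G17820 differed by -0.47, -0.29 and -0.27. These values moved with single arrays. The list median was -0.76 without RNAi control replicate 3 and -0.17 without RNAi zinc replicate 3, and it was -0.25 and -0.24 without RNAi control replicates 1 and 2. EXPA18 was at -0.78 without control replicate 3 and -0.0051 without zinc replicate 3, EXPA7 at -0.79 and -0.12, and AT5G06630 at -1.14 and -0.39. The summed log2 level of the 8 ran from 10.73 to 11.77 with zinc and from 11.08 to 12.24 in control. In whole roots, fewer root hair cells and less RNA per cell cannot be told apart.

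The other families with at least 3 measured members centred close to 0. Of 50 lists 28 had at least 3 measured members and 11 had none. The medians of the 28 ran from -0.42 to 0.077, against -0.0017 over all probe sets. The remaining lists ran from -0.27 (copper, CCS alone) to 0.97 (nitrate and ammonium transport, NRT2.5 alone). Among these, methionine and ethylene synthesis was at -0.15 (WT 0.41), low oxygen at 0.32 (WT -0.32), and touch and wound at 0.49 (WT -0.43). Across all lists 443 genes were measured and 0 passed. Among 54 class III peroxidases, which cross-link cell walls, 19 were above and 35 below 0 with a median of -0.058, and AT4G33420 was the lowest. With AT1G77100 (-0.20) and AT3G50990 (0.19) it made up the 3 of 54 with an unadjusted p under 0.05, against 4.52% of all probe sets. Among 18 expansins, which loosen walls, 5 were above and 13 below 0 (median -0.045), and EXPA9 averaged 6.89 ± 0.10 with zinc and 6.50 ± 0.28 in control (SD, n = 3 each). The 9 xyloglucan endotransglucosylases had a median of -0.10, the 22 TBL wall acetyltransferases one of 0.077, with TBL18 at 0.26, and the 15 glycoside hydrolase 9 cellulases one of -0.013, with GH9B12 at -0.18 and GH9B17 at -0.18. The 7 tubulins had a median of 0.012.

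Genes of secondary metabolism and defence gave a similar picture. The 24 cytochromes P450 had a median of -0.021 and 47 UDP-glycosyltransferases one of -0.0083, with the cytokinin glucosyltransferase UGT76C2 at -0.27. The 14 glutathione S-transferases had a median of -0.095, with 3 above 0, 11 below and GSTU18 at -0.37. The 20 beta-glucosidases had a median of -0.033, the 13 defensins and defensin-like genes one of 0.029, with LCR68 at 0.20, and 29 serine carboxypeptidase-like genes one of 0.049, with scpl28 at 0.59 and scpl44 at -0.23. Of these 29, the 6 named in capitals had a median of 0.031. The groups of scpl28 overlapped, at 5.54, 6.55 and 5.29 with zinc, against 5.20, 5.03 and 5.38 in control. Its difference fell as low as 0.21 with a single array left out. The 11 RALF-like peptides, which signal to receptor kinases, had a median of -0.033, with RALFL31 at 4.86, 4.99 and 5.01 with zinc, against 4.59, 4.66 and 4.77 in control. RALFL31 was the 1 of 11 with an unadjusted p under 0.05, against 4.52% of all probe sets, and 3 of 11 had separate groups, 2 with zinc higher and 1 with zinc lower, against 10.0% of all probe sets.

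The 14 SWEET sugar carriers all lay below 0, with a median of -0.096 in RNAi roots and -0.0011 in WT roots, and SWEET3 at -0.27. Over all named genes 51.3% lay below 0. The 15 tetraspanins had a median of -0.060, with TET9 at -0.25, and the 13 late embryogenesis and cold proteins one of 0.042, with LEA18 at 0.26. The 6 WRKY factors had a median of -0.0046, and the 4 measured ABA and drought genes one of -0.012. AT1G12010 encodes an ACC oxidase, which makes ethylene, and it was at 6.97, 7.58 and 6.91 with zinc, against 7.89, 8.01 and 7.47 in control, a difference of -0.64 (SE 0.27).

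Transcripts of the organelles were read separately. Of 48 chloroplast-encoded genes 13 were above and 35 below 0, with a median of -0.057 in RNAi and -0.088 in WT roots. In 6 of them the zinc arrays lay below all controls, against 5.41% of all probe sets. Among them were ndhK (-0.21) of the NADH dehydrogenase-like complex and petL (-0.32) of the cytochrome b6f complex. Both had low mean levels, 4.12 and 3.29, against array medians of 5.34 to 5.38. The petL controls were at 3.79, 3.19 and 3.15, and its difference ran from -0.43 to -0.11 with single arrays left out. The photosynthesis genes used as shoot markers had a median of -0.031, with 3 above and 5 below 0. Of 15 mitochondrion-encoded genes 6 were above and 9 below 0 (median -0.032), and the 8 NADH dehydrogenase genes among them had a median of 0.040. nad7, a subunit of complex I, was at 5.74, 5.30 and 5.30 with zinc, against 5.18, 5.04 and 5.22 in control, and was separate in WT as well (0.24).

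**Figure D4:**
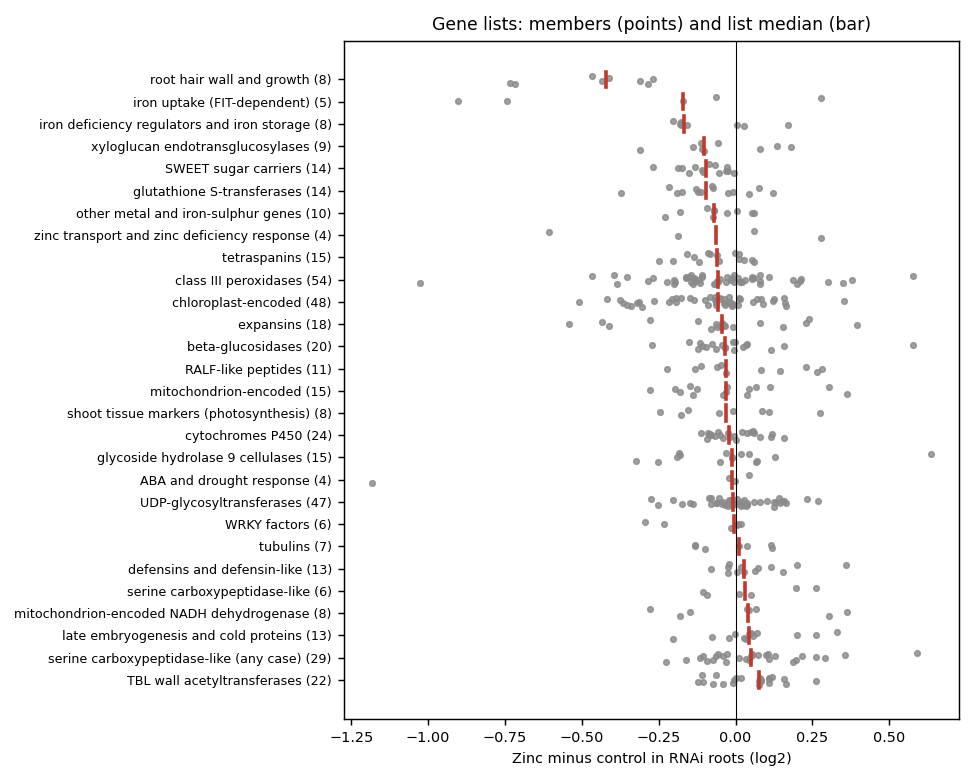
Zinc minus control difference in RNAi roots (log2, horizontal axis) of each measured member (points) and the list median (bars) for the 28 lists with at least 3 members, with the number measured in brackets. The root hair list has the lowest median, -0.42, and the other medians lie between -0.17 and 0.077.

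Some transcripts varied more between arrays of one medium than between the media, and these were chosen after their values were seen. NRT2.5, a high-affinity nitrate transporter, was at 4.28, 6.58 and 5.06 in RNAi zinc roots, against 4.12, 4.13 and 4.76 in RNAi control roots. HIS1-3, a stress-induced linker histone, was at 5.53, 8.19 and 7.72 with zinc, against 8.61, 8.19 and 8.19 in control. CML37, a calmodulin-like protein of the wound response, was at 8.53, 6.84 and 7.37 with zinc, against 5.91, 6.84 and 8.19 in control. In each of them a single zinc array set most of the difference or the groups interleaved: 0.97 (SE 0.57), -1.18 (SE 0.83) and 0.60 (SE 0.54). STZ, a stress-induced zinc finger factor, was at 8.46, 6.72 and 7.05 with zinc, against 6.54, 7.22 and 7.95 in control.

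Among probe sets with no gene name, those with the lowest value, the smallest p and the 2 highest values were chosen after their values were seen. Probe set 266719_at was at 3.97, 5.20 and 5.94 in RNAi zinc roots, against 7.64, 7.07 and 6.73 in RNAi control roots, a difference of -2.11 (SE 0.70, limma adjusted p = 0.9996). Probe set 250832_at was at 5.45, 4.81 and 5.25 with zinc, against 6.76, 6.47 and 6.04 in control, a difference of -1.25 (SE 0.20, limma adjusted p = 0.895), the smallest p of all. The groups of both were separate. Those above 0 were 256012_at (1.14, SE 0.43) and 248970_at (1.01, SE 0.89), and 256012_at also differed by 0.97 in WT.

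The zinc response of RNAi roots was then set against that of WT roots. The interaction called 0 of 22746 probe sets (0%), with a lowest limma adjusted p of 0.9999 and 497 probe sets at an unadjusted p under 0.05 (2.18%). Its median SE was 0.155, against 0.109 for the zinc difference within a line. Differences of at least 0.5 were found upwards for 69 probe sets in RNAi (0.303%) and 123 in WT (0.541%), and downwards for 116 in RNAi (0.510%) and 142 in WT (0.624%). Separate groups were found for 10.0% of probe sets in RNAi and 10.3% in WT.

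Most of the variation among the RNAi arrays lay between arrays of the same medium. Of the sum of squares among the 6 RNAi arrays 17.8% lay between the media, where 1 of 5 degrees of freedom holds 20%. The first 2 axes of variation, with 34.0% and 30.0% of it, did not part the media, and the third, with 18.6%, did. Spike-in transcripts added before hybridization, with no plant RNA, averaged 9.90 ± 0.06 on RNAi zinc arrays and 10.27 ± 0.16 on RNAi control arrays (SD, n = 3 each). All zinc arrays were lower, in the mean and in 17 of 18 spike-in probe sets, with an exact permutation p of 0.1, two-sided, the smallest that 3 against 3 arrays allow. On WT arrays the spike-in mean was 9.95 ± 0.12 with zinc and 10.22 ± 0.03 in control (SD, n = 3 each), again with all zinc arrays lower. Over both lines together, the highest zinc array (10.08, WT) lay below the lowest control array (10.14, RNAi). The part of this spike-in shift in the gene differences, also in those shared by RNAi and WT roots, was not tested apart from the covariate fit in the closing section.

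**Figure D5:**
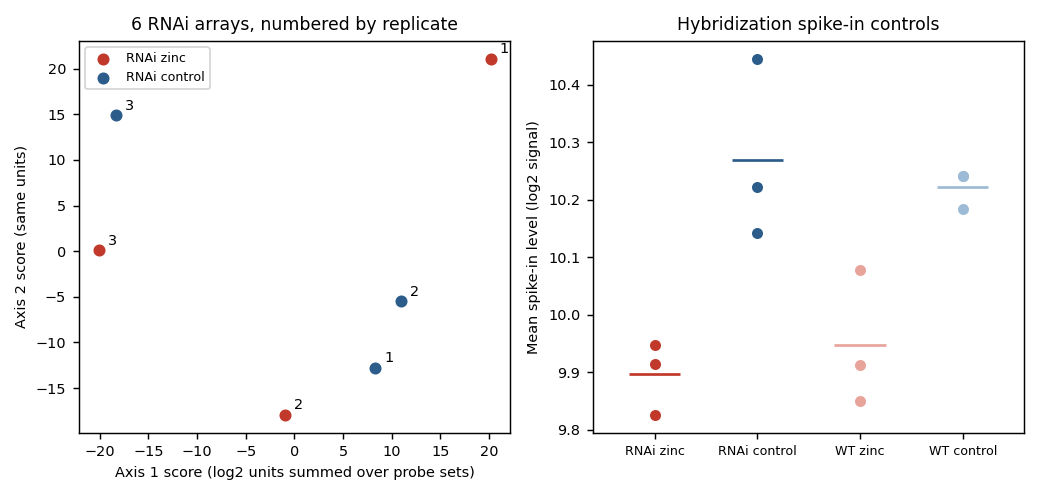
Left, scores of the 6 RNAi arrays on their first 2 axes of variation (log2 units), numbered by replicate; right, mean level of the 18 hybridization spike-in probe sets on each of the 12 arrays (log2 signal, axis not from 0), with bars for group means. On axis 1 zinc replicate 3 (-20.1) and control replicate 3 (-18.4) lie opposite zinc replicate 1 (20.2), and the spike-in means are 9.90 for RNAi zinc and 10.27 for RNAi control.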

How the data were processed

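Biotin-labelled root RNA was measured on single-colour arrays. The deposited values are log2 signals, 1 for each probe set. The authors made them with RMA in affy, per the submitters' processing notes. Their versions and single steps: not given in the sources used here. They ran from 2.46 to 14.3 and were used without further scaling or filter. The number of arrays limits the precision. In R 4.3.3, limma 3.58.1 (lmFit, eBayes; 8 residual and 3.79 prior degrees of freedom) fitted 4 group means over all 12 arrays, and the procedure was tested on simulated data. Tables were made in Python 3.11.15.

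The genes and lists were chosen with earlier results of these data known. Named were, among single-gene probe sets with separate RNAi groups, the 12 highest, the 12 lowest and the 6 smallest p in each direction; all measured zinc, nicotianamine, iron, copper and other metal genes; and up to 4 members of each other list with an unadjusted p under 0.05. A gene took its brightest probe set. Of the 50 lists 11 were added after the annotation was seen, and the name patterns for cytochromes P450 and defensins were narrowed after values were seen, to leave out other genes with like names. One symbol that belongs to several genes, FRO1, was left off the metal list after its value was seen, because the annotation's gene identifier was not that of the ferric reductase. Lists were described by counts and medians, with no set test. Alternatives were other normalizations, filters, models and arrays left out.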

Additional observations from a re-analysis of the deposited data

Results flagged for a closer look

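The array had 64 control probe sets, which were left out of the gene test and include the 18 hybridization spike-in probe sets. Of the 64, 2 had all 3 RNAi zinc arrays above all 3 RNAi control arrays, and 18 had them below. Among the probe sets tested, the shares above and below were 4.61% and 5.41%. The lower ones include 17 of the 18 spike-in probe sets, so that count largely repeats the spike-in result. The actin 3' control AFFX-r2-At-Actin-3_s_at was at 12.71, 12.57 and 12.58 in RNAi zinc roots, against 12.51, 12.48 and 12.55 in RNAi control roots, a difference of 0.104. The Bacillus thr control AFFX-r2-Bs-thr-M_s_at was at 7.36, 7.54 and 7.34 with zinc, against 7.19, 6.94 and 7.22 in control, a difference of 0.294. Neither difference was tested.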

How the results depend on the processing

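In all 21 alternatives 0 probe sets passed in RNAi roots, with a lowest limma adjusted p of 0.0511, without RNAi zinc replicate 3, and in all 19 for the interaction 0 passed (lowest 0.292). Of 1138 values of named genes under alternatives 0 passed and 46 changed sign. The spike-in level parts the RNAi media, so as a covariate it overlaps with zinc; the cause of the changes below was not tested except where fewer probe sets or arrays entered.

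The labels give no tie between replicate numbers and experiments. Deviations of same-numbered RNAi arrays correlated at -0.084, 0.13 and 0.41, so 2 of 3 pairs were above 0.1, and 1 of 3 zinc arrays matched its own number best. With the replicate block 0 probe sets passed, over all 12 arrays (lowest adjusted p 0.455) and within the 6 RNAi arrays (0.602).

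The count at an unadjusted p under 0.05 was 1852 with array weights, and between 766 and 1490 when an array was left out. It thus lay on both sides of the 1137 that chance gives on average. Among brighter probe sets only, those above the median level, it was 374. Fewer probe sets entered that fit, so the 1137 does not apply to it. Differences of at least 1 numbered 168 with the spike-in covariate, and between 15 and 44 when an array was left out, the most without RNAi control replicate 3. Separate groups numbered 1019 among brighter probe sets only, where again fewer probe sets entered. They numbered 3878 to 5837 with an array left out, where groups of 2 are compared with groups of 3.

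With the spike-in covariate the list medians that moved were 0.12 (iron regulators), -0.21 (shoot markers), -0.30 (xyloglucan enzymes), -0.23 (expansins), 0.036 (cytochromes P450), -0.065 (defensins), -0.14 (carboxypeptidases in capitals), -0.068 (all carboxypeptidases), 0.29 (mitochondrial NADH dehydrogenase), 0.33 (mitochondrion-encoded), -0.032 (peroxidases), 0.16 (chloroplast-encoded), -0.14 (beta-glucosidases) and -0.13 (tetraspanins). Among brighter probe sets only they were 0.040 (xyloglucan enzymes), -0.18 (mitochondrial NADH dehydrogenase), -0.12 (mitochondrion-encoded), -0.080 (beta-glucosidases), 0.19 (all carboxypeptidases), 0.15 (RALF-like) and -0.0020 (tetraspanins). With array weights they were 0.0091 (UDP-glycosyltransferases) and -0.0076 (other metal genes).

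With single arrays left out, medians that moved ran from -0.13 to 0.024 (zinc transport), -0.18 to -0.011 (iron regulators), -0.11 to -0.0044 (ABA and drought), -0.12 to 0.072 (xyloglucan enzymes), -0.0035 to 0.013 (UDP-glycosyltransferases), -0.084 to 0.078 (tubulins), -0.00056 to 0.045 (carboxypeptidases in capitals), -0.013 to 0.075 (TBL), -0.10 to 0.047 (WRKY), -0.075 to 0.10 (mitochondrial NADH dehydrogenase), -0.059 to -0.034 (peroxidases), -0.074 to -0.0057 (other metal genes), -0.10 to -0.0073 (beta-glucosidases), -0.15 to 0.072 (mitochondrion-encoded), -0.17 to -0.064 (SWEET), -0.086 to 0.055 (RALF-like), -0.12 to -0.024 (tetraspanins) and 0.011 to 0.096 (late embryogenesis).

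Of the 90 named genes 55 moved by over 1.5 times with the spike-in covariate and 52 with at least 1 single array left out. With the covariate AT1G68360 was at -0.025, AT1G69570 at -0.18, AT2G37870 at 0.039, LCR68 at 0.0041, NRT2.5 at 2.32 and AT2G48080 at -1.73. Genes changed sign with the spike-in covariate at AT1G05340 (0.31), EXLB1 (0.15), bHLH115 (0.24), AT1G74770 (0.061), BHLH101 (0.17), CCS (0.35), AT3G50990 (-0.042), MT1C (0.20), ISU1 (0.26), MTP11 (-0.084), SUFE2 (0.29), petL (0.32), HIS1-3 (1.39), STZ (-0.98) and CML37 (-0.66). With array weights these were bHLH104 (-0.0025), MT1C (0.028), MTP11 (-0.0088) and LPR2 (0.11), and with quantile normalization RCA (0.0064). With single arrays left out, differences ran from -0.029 to 0.17 (bZIP19), -0.13 to 0.042 (BGLU42), -0.053 to 0.045 (ILR3), -0.12 to 0.18 (bHLH104), -0.090 to 0.49 (AT1G47400), -0.21 to 0.13 (MT1C), -0.15 to 0.0061 (ISU1), -0.023 to 0.12 (MTP11), -0.0050 to 0.14 (bHLH121), -0.39 to 0.27 (LPR2), -0.067 to 0.026 (CPNIFS), -0.036 to 0.041 (MTPA1), -0.047 to 0.089 (PYK10), -0.71 to 0.072 (XTH26), -0.36 to 0.53 (STZ) and -0.083 to 0.033 (RCA).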
